A study of Mus musculus with 6 samples.

Results

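MicroRNAs of the miR-344, miR-325, miR-384 and miR-346 families were examined in small extracellular vesicles (sEVs) released by cultured mouse islets. Every entry of the deposited table named mmu-miR-344 (with any letter), mmu-miR-325, mmu-miR-384 or mmu-miR-346, with any arm, was taken, which gave 11 mature miRNAs among 718 entries. The miR-344 family gave 5 of them and each of the other families gave 2. The families were picked because their levels were known to differ between the sEV groups in these same libraries, and mmu-miR-346-5p, mmu-miR-325-5p, mmu-miR-384-3p and mmu-miR-344b-3p had 0 reads in every library of control sEVs. Their levels are therefore given as a description, with no test.

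Small RNA was sequenced from 3 libraries of sEVs from islets of mice on a normal chow diet (NCD), called normal islet-derived sEVs (nid-sEVs), and 3 libraries of sEVs from islets of mice on a high-fat diet (HFD), called adaptive islet-derived sEVs (aid-sEVs). All mice were wild type (WT) and of the strain given as C57/B6J. The labels call the material exosomes of islet tissue and give neither the age of the mice nor the length of the diet for these libraries. Islets hold several cell types and were cultured whole, so more sEVs from a cell type and more of a miRNA per sEV cannot be told apart.

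A miRNA is cut from a hairpin precursor, whose left and right arms give the 5p and the 3p mature strand. The strand that is loaded into an Argonaute protein guides it to messenger RNAs that pair with the seed, bases 2 to 8 of the miRNA, and these messages are then repressed. The other strand is usually degraded, so the arms of a hairpin often differ widely in level. miR-344 and miR-384 are best known from the nervous system, and miR-346 lies in a gene for a glutamate receptor subunit.

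The mature sequences are printed because the seeds and the shared stretches decide which of these miRNAs can be told apart by reads and which could share targets. All 11 names matched the RefSeq table (GRCm38.p6). Bases are written 5′ to 3′, with the seed in capitals.
mmu-miR-346-5p: uGUCUGCCcgagugccugccucu
mmu-miR-346-3p: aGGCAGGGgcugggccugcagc
mmu-miR-325-5p: cCUAGUAGgugcucaguaagugu
mmu-miR-325-3p: uUUAUUGAgcaccuccuaucaa
mmu-miR-384-5p: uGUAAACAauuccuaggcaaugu
mmu-miR-384-3p: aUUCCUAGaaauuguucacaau
mmu-miR-344-5p: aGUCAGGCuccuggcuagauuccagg
mmu-miR-344-3p: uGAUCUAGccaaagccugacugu
mmu-miR-344b-3p: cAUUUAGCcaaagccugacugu
mmu-miR-344d-3-5p: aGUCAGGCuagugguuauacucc
mmu-miR-344d-3p: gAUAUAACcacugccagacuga

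Among the 11 sequences, the seed GUCAGGC was the only seed that occurred more than once, in mmu-miR-344-5p and mmu-miR-344d-3-5p. The 3p strands of miR-344 and miR-344b had different seeds, GAUCUAG and AUUUAGC, although they shared the 18-base run uagccaaagccugacugu and were 3 edits apart. Reads of these 2 strands differ only toward the 5′ end, so a read that is trimmed there could be counted for either, and their split is uncertain. GC content ran from 27.3% in mmu-miR-384-3p to 77.3% in mmu-miR-346-3p.

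The hairpins lay in 3 places of the genome (GRCm38.p6). Mir346 (chr14:34894609-34894706, plus strand) was in an intron of Grid1, which encodes a delta-type glutamate receptor subunit and is transcribed from the same strand. Mir384 (chrX:105344282-105344369, minus strand) overlapped no annotated gene, and Mir325 (chrX:105379082-105379179, minus strand) was 34712 bases from it, in an intron of the long noncoding gene 5330434G04Rik. The miR-344 family had 13 hairpins on the minus strand of chromosome 7 within 402187 bases, and 6 of these hairpins give the 5 miR-344 miRNAs analysed here. They were Mir344d-1 (chr7:61683124-61683192), Mir344d-2 (chr7:61685272-61685351), Mir344d-3 (chr7:61726249-61726328), Mir344b (chr7:61790519-61790581), Mir344 (chr7:61877770-61877864) and Mir344-2 (chr7:61940027-61940106). Mir344d-3, Mir344b and Mir344 were in introns of the noncoding gene A230057D06Rik and Mir344-2 was in an intron of the noncoding gene A330076H08Rik. The nearest protein-coding gene was Ndn, an imprinted gene, 261259 bases beyond Mir344i. mmu-miR-344d-3p is the same in 3 hairpins, and mmu-miR-344-3p and mmu-miR-344-5p are the same in 2, so reads cannot say which copy they came from. RefSeq holds 19 mature miR-344 names, and the other 14 were not analysed here. Of the 424 named entries matched to RefSeq, no other had a hairpin within 50 kb of these hairpins, and the remaining entries were not placed.

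**Figure D1:**
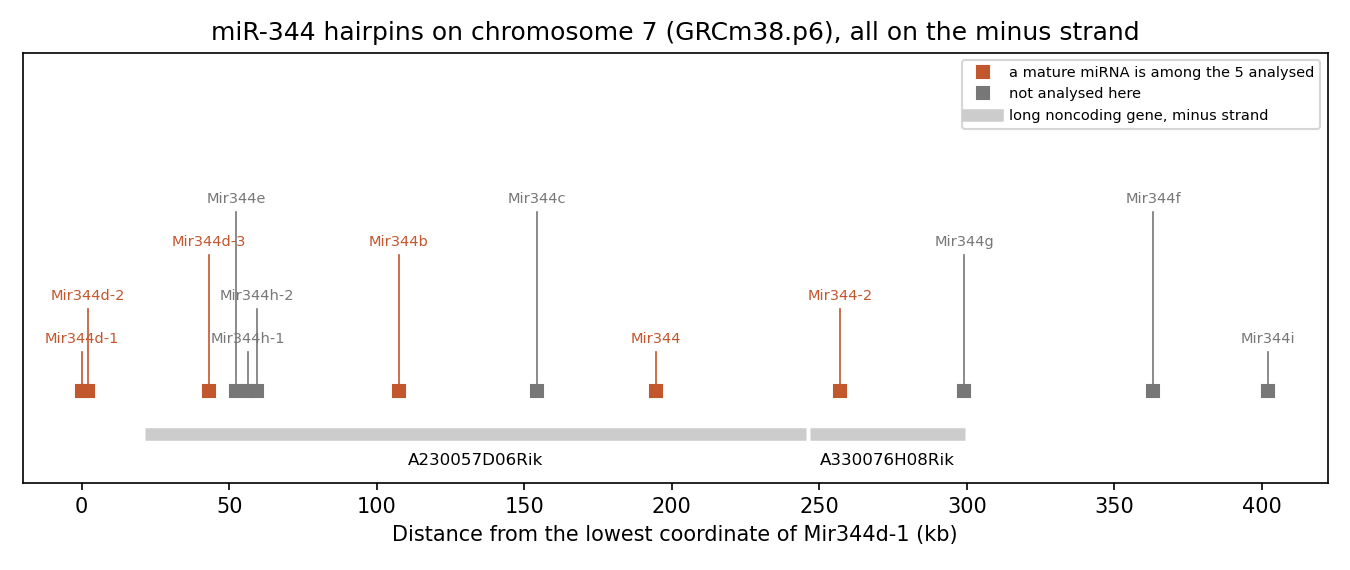
Map of the 13 miR-344 hairpins on chromosome 7, drawn by distance in kb from the lowest coordinate of Mir344d-1. The 6 orange squares are hairpins whose mature miRNAs are analysed, grey squares are the others, and grey bars are the long noncoding genes that most of them lie in. The analysed hairpins run from the lowest coordinate to Mir344-2, and the 3 hairpins beyond it are not among them.

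The libraries held few counted reads, which sets what a count of 0 can mean. The totals recovered from the table were 50534 to 129152 reads in nid-sEVs and 122266 to 519315 reads in aid-sEVs, so that 3 reads, taken as the smallest level a library could show, were 23.2 to 59.4 RPM (reads scaled to the total of the library) in nid-sEVs and 5.78 to 24.5 RPM in aid-sEVs. Of these totals, 99.75% to 99.96% fell on the listed entries, so they do not give the number of reads sequenced. Depth here means these totals. In the library of nid-sEV replicate 1, 33.4% of reads fell on entries with no miRBase name, against 6.61% to 9.45% in the other libraries. miR-375-3p, the miRNA most typical of islet endocrine cells, was at 184473 ± 147928 RPM in nid-sEVs and 151896 ± 13972 RPM in aid-sEVs (SD, n = 3), and all 13 islet endocrine miRNAs of a fixed list were in the table. Intervals below are 95% Wilson intervals of a single library, and they and the floors cover counting error only.

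The 11 miRNAs together gave 17, 2 and 10 reads in the nid-sEV libraries and 1660, 1390 and 520 reads in the aid-sEV libraries. Summed, this was 132, 30.5 and 198 RPM in nid-sEVs and 3197, 3946 and 4253 RPM in aid-sEVs. The means were 120.0 ± 84.3 and 3799 ± 543 RPM (SD, n = 3), a ratio of 31.7, and the lowest aid-sEV library was far above the highest nid-sEV library. Of the 11, 3, 1 and 2 were detected in nid-sEV replicates 1, 2 and 3, and 11, 11 and 9 in aid-sEV replicates 1, 2 and 3.

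**Figure D2:**
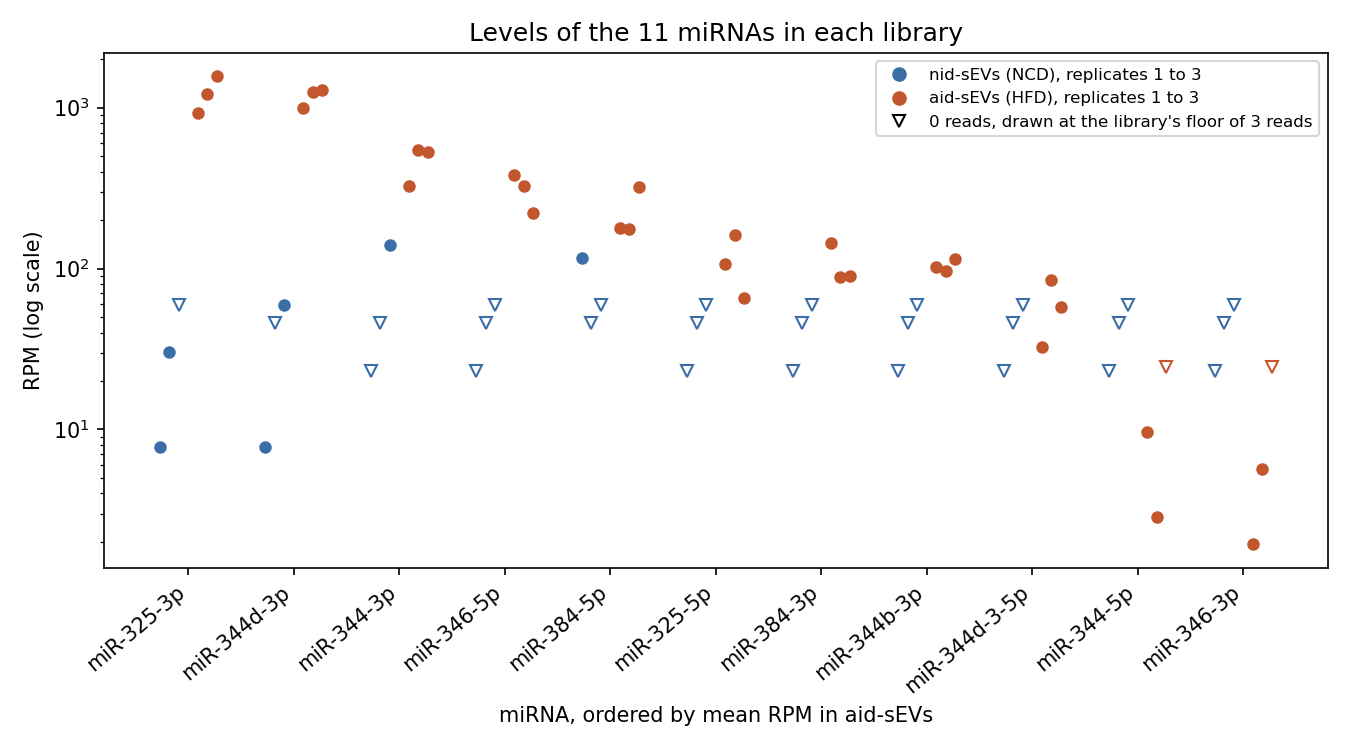
RPM of each miRNA (log axis) in the 3 nid-sEV libraries (blue) and the 3 aid-sEV libraries (orange), ordered by the mean in aid-sEVs. Open triangles mark libraries with 0 reads and are drawn at that library's floor of 3 reads. For mmu-miR-325-3p and mmu-miR-344d-3p, the lowest aid-sEV point is at 926 RPM and no nid-sEV point or floor is above 59.4 RPM.

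mmu-miR-325-3p was the most abundant member in aid-sEVs. It was found in 481, 426 and 191 reads of aid-sEV replicates 1, 2 and 3, or 926, 1209 and 1562 RPM. In nid-sEVs it was found in 1, 2 and 0 reads, or 7.74, 30.5 and 0 RPM. All nid-sEV libraries were thus under the floor of 3 reads and all aid-sEV libraries were high. The aid-sEV mean was 1233 ± 319 RPM and the nid-sEV mean was 12.7 ± 15.8 RPM (SD, n = 3). With the reads of each group pooled, the level was 90.4 times as high in aid-sEVs, with an exact 95% interval of 30.8 to 439 from counting error. The spread between aid-sEV libraries was larger than counting error, since the interval was 847 to 1013 RPM in replicate 1 and 1356 to 1800 RPM in replicate 3.

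The other strand of the hairpin, mmu-miR-325-5p, had 0 reads in each nid-sEV library and 55, 57 and 8 reads in aid-sEV replicates 1, 2 and 3. This was 106, 162 and 65.4 RPM, or 111 ± 48.4 RPM (SD, n = 3), at least 1.87-fold higher than what 3 reads would be in the shallowest nid-sEV library (59.4 RPM). At the mean aid-sEV level, the depth of nid-sEV replicates 1, 2 and 3 would have given 14.3, 7.29 and 5.61 reads. The counts of 0 therefore lay below what the aid-sEV level would have shown, though the lowest aid-sEV library would have given only 3.31 reads in nid-sEV replicate 3. Summed over both strands, miR-325 was at 1032, 1371 and 1628 RPM in aid-sEVs and at 7.74, 30.5 and 0 RPM in nid-sEVs.

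In the miR-344 family, mmu-miR-344d-3p was the leading strand. In replicates 1, 2 and 3 of aid-sEVs it had 513, 441 and 158 reads, or 988, 1252 and 1292 RPM. In nid-sEVs it had 1, 0 and 3 reads, or 7.74, 0 and 59.4 RPM. The groups did not overlap, and the means were 1177 ± 165 and 22.4 ± 32.3 RPM (SD, n = 3). With reads pooled, the level was 68.6 times as high in aid-sEVs, with an exact 95% interval of 26.7 to 252 from counting error. Its range in aid-sEVs overlapped that of mmu-miR-325-3p, so the first and second place in the order of levels do not differ beyond their spread.

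mmu-miR-344-3p came next in level, at 168, 192 and 65 reads in aid-sEV replicates 1, 2 and 3, or 324, 545 and 532 RPM. In replicates 1, 2 and 3 of nid-sEVs it had 0, 0 and 7 reads, where the 7 reads were 139 RPM with an interval of 67.1 to 286 RPM. All its nid-sEV reads thus came from replicate 3, the shallowest library. The aid-sEV mean was 467 ± 124 RPM and the nid-sEV mean was 46.2 ± 80.0 RPM (SD, n = 3), a ratio of 10.1. Pooled reads, which give less weight to that library, had a ratio of 15.0. The exact 95% interval of 7.21 to 37.5 is from counting error and leaves out the spread between libraries.

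mmu-miR-344b-3p, which shares most of its bases with mmu-miR-344-3p, had 0 reads in each nid-sEV library. In replicates 1, 2 and 3 of aid-sEVs it had 53, 34 and 14 reads, or 102, 96.5 and 115 RPM. The mean of 104 ± 9.21 RPM (SD, n = 3) was at least 1.76-fold higher than what 3 reads would be in the shallowest nid-sEV library, and its coefficient of variation of 8.82% was the lowest of the 9 members found in all 3 aid-sEV libraries. At this mean, nid-sEV replicates 1, 2 and 3 would have given 13.5, 6.85 and 5.27 reads.

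The 5p strands of the family were scarce. mmu-miR-344d-3-5p had 0 reads in each nid-sEV library and 17, 30 and 7 reads in aid-sEV replicates 1, 2 and 3, or 32.7, 85.2 and 57.3 RPM. Its mean of 58.4 ± 26.2 RPM (SD, n = 3) was below the highest nid-sEV floor, so no fold is given, and the shallowest nid-sEV library would have held only 2.95 reads at this mean. mmu-miR-344-5p was found in 5, 1 and 0 reads of aid-sEV replicates 1, 2 and 3 and in 0 reads of nid-sEVs. A difference for mmu-miR-344-5p was not detectable at this depth, since fewer than 1 read would have been seen in any nid-sEV library.

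The summed miR-344 level was 1456, 1982 and 1996 RPM in aid-sEVs and 7.74, 0 and 198 RPM in nid-sEVs. The means were 1811 ± 308 and 68.5 ± 112 RPM (SD, n = 3), a ratio of 26.4, and 10 of the 11 nid-sEV reads were from replicate 3. Within aid-sEV replicates 1, 2 and 3, mmu-miR-344d-3p stood at 3.05, 2.30 and 2.43 times mmu-miR-344-3p, and mmu-miR-344-3p stood at 3.17, 5.65 and 4.64 times mmu-miR-344b-3p. The order of these 3 strands was the same in every aid-sEV library.

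mmu-miR-346-5p was the most abundant of the members with no read in nid-sEVs. It had 0 reads in each nid-sEV library and 199, 114 and 27 reads in aid-sEV replicates 1, 2 and 3. In aid-sEVs this was 383, 324 and 221 RPM, with intervals of 334 to 440.3 RPM in replicate 1 and 152 to 321 RPM in replicate 3. The mean of 309 ± 82.1 RPM (SD, n = 3) was at least 5.21-fold higher than what 3 reads would be in the shallowest nid-sEV library, the largest bound among the members at 0 in nid-sEVs. The nid-sEV libraries would have given 39.9, 20.3 and 15.6 reads at this mean, and 0 reads in nid-sEV replicate 1 allows a level of at most 29.7 RPM by the Wilson interval. The partner strand mmu-miR-346-3p was seen in 1, 2 and 0 reads of aid-sEV replicates 1, 2 and 3 and in 0 reads of nid-sEVs, too few for a comparison.

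mmu-miR-384-5p differed least among the members with reads in nid-sEVs. In replicates 1, 2 and 3 of aid-sEVs it had 93, 62 and 39 reads, or 179, 176 and 319 RPM. In nid-sEVs it had 15, 0 and 0 reads, and the 15 reads of replicate 1 were 116 RPM with an interval of 70.4 to 192 RPM. That interval overlapped those of aid-sEV replicate 1, 146 to 219 RPM, and of aid-sEV replicate 2, 137 to 226 RPM, so nid-sEV replicate 1 was close to them in level. The aid-sEV mean was 225 ± 81.7 RPM and the nid-sEV mean was 38.7 ± 67.1 RPM (SD, n = 3), a ratio of 5.80. Pooled reads had a ratio of 3.19, with an exact 95% interval of 1.89 to 5.82 from counting error, which leaves out the spread between libraries.

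mmu-miR-384-3p had 0 reads in each nid-sEV library, replicate 1 included, and 75, 31 and 11 reads in aid-sEV replicates 1, 2 and 3. This was 144, 88.0 and 90.0 RPM, or 107 ± 32.0 RPM (SD, n = 3), at least 1.81-fold higher than what 3 reads would be in the shallowest nid-sEV library. The nid-sEV libraries would have given 13.9, 7.06 and 5.43 reads at this mean. The strands of this hairpin thus differed in nid-sEV replicate 1, where the 5p strand was present and the 3p strand was not seen.

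**Figure D3:**
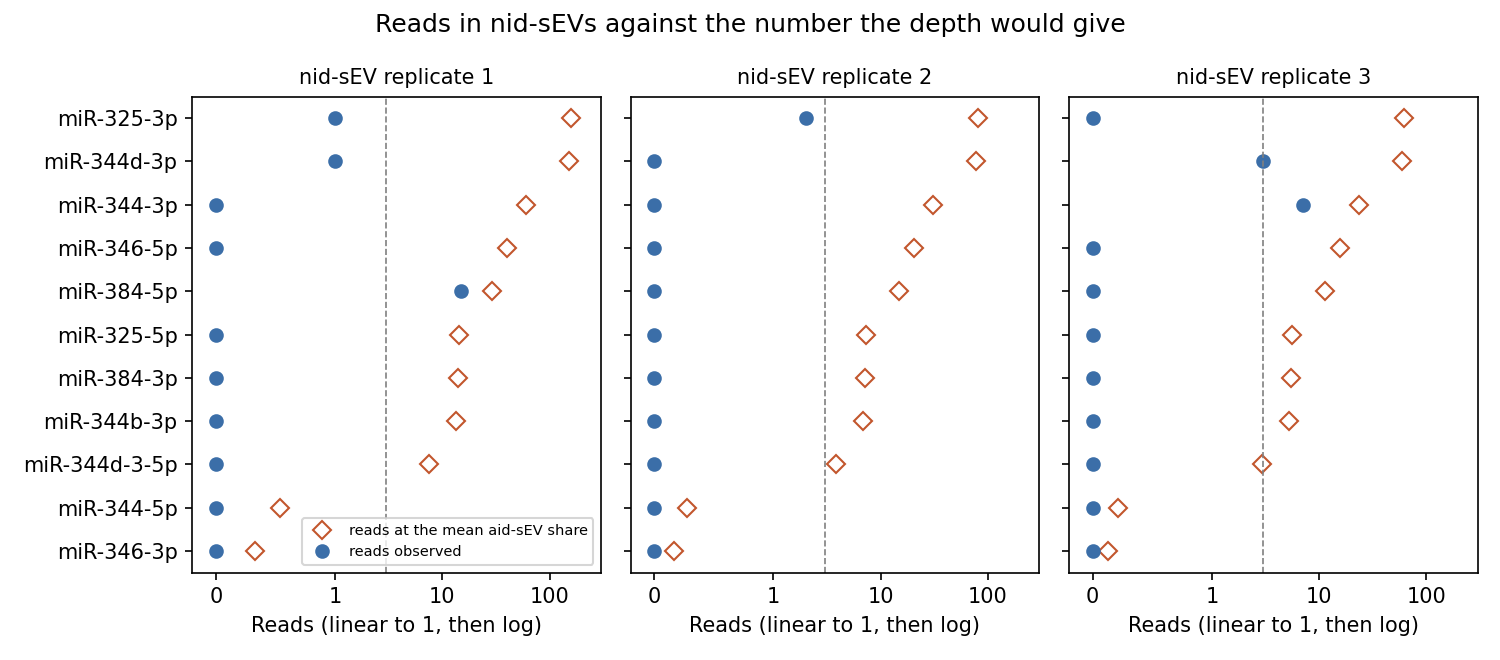
Reads observed in each nid-sEV library (blue circles) and the reads that library would hold at the mean aid-sEV level (orange diamonds), on an axis that is linear to 1 and logarithmic above. The dashed line marks 3 reads. For 9 of the 11 miRNAs the diamonds are at or above about 3 reads in every library, and for mmu-miR-344-5p and mmu-miR-346-3p they are below 1.

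In order of mean level in aid-sEVs, the members ran mmu-miR-325-3p, mmu-miR-344d-3p, mmu-miR-344-3p, mmu-miR-346-5p, mmu-miR-384-5p, mmu-miR-325-5p, mmu-miR-384-3p, mmu-miR-344b-3p, mmu-miR-344d-3-5p, mmu-miR-344-5p and mmu-miR-346-3p. The ranges of mmu-miR-344-3p and mmu-miR-346-5p overlapped, as did those of mmu-miR-346-5p and mmu-miR-384-5p. mmu-miR-325-5p, mmu-miR-384-3p and mmu-miR-344b-3p lay within 10 RPM of each other in their means and do not differ beyond their spread. The step from the first pair to mmu-miR-344-3p was larger than the spread, since the lowest library of the pair was at 926 RPM and the highest of mmu-miR-344-3p was at 545 RPM.

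The spread between aid-sEV libraries differed among the members. The median coefficient of variation was 26.6% over the 9 members detected in all 3 aid-sEV libraries and 39.4% over the 469 entries so detected. mmu-miR-325-5p, at 43.6%, and mmu-miR-344d-3-5p, at 44.9%, were above the median of all entries, while mmu-miR-344b-3p and mmu-miR-344d-3p, at 8.82% and 14.0%, varied least. The ratio of mmu-miR-344d-3p to mmu-miR-325-3p, which come from different chromosomes, was 1.07, 1.04 and 0.827 in aid-sEV replicates 1, 2 and 3. The ratio of mmu-miR-325-3p to mmu-miR-384-5p, whose hairpins are neighbours on chromosome X, was 5.17, 6.87 and 4.90. These values describe 3 libraries and were not tested.

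Since the aid-sEV libraries were deeper, libraries of similar total were set side by side. nid-sEV replicate 1 held 129152 reads and aid-sEV replicate 3 held 122266 reads. The members gave 17 reads in the first and 520 in the second. mmu-miR-325-3p had 1 against 191 reads and mmu-miR-344d-3p had 1 against 158. mmu-miR-344-3p had 0 against 65 reads and mmu-miR-346-5p had 0 against 27. mmu-miR-384-5p had 15 against 39 reads. Every member seen in either library was thus higher in the aid-sEV library at a similar total, and mmu-miR-344-5p and mmu-miR-346-3p were seen in neither. This pair is a single library of each group, picked after the data were seen. Entries with no miRBase name took 33.4% of reads in the nid-sEV library and 9.22% in the aid-sEV library. The totals of named miRNAs were therefore less alike.

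The arms of the hairpins were found at unequal levels. mmu-miR-346-3p made up 0.50%, 1.72% and 0% of the miR-346 reads in aid-sEV replicates 1, 2 and 3, where the 0 of 27 reads allows up to 12.5%. mmu-miR-344-5p made up 2.89%, 0.518% and 0% of the reads of its hairpins, where the 0 of 65 reads allows up to 5.58%. In both hairpins nearly all reads came from a single arm.

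For miR-325, the 5p strand made up 10.3% (7.97% to 13.1%), 11.8% (9.22% to 15.0%) and 4.02% (2.05% to 7.73%) of the reads in aid-sEV replicates 1, 2 and 3. The share was lower in replicate 3 than in the other libraries beyond counting error. For miR-384, the 3p strand made up 44.6% (37.3% to 52.2%), 33.3% (24.6% to 43.4%) and 22.0% (12.8% to 35.2%). In the only nid-sEV library with miR-384 reads, it made up 0 of 15 reads, which allows up to 20.4%. miR-384 was thus the hairpin with the most even use of its arms in aid-sEVs, and its interval in aid-sEV replicate 3 overlapped that of the nid-sEV library.

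**Figure D4:**
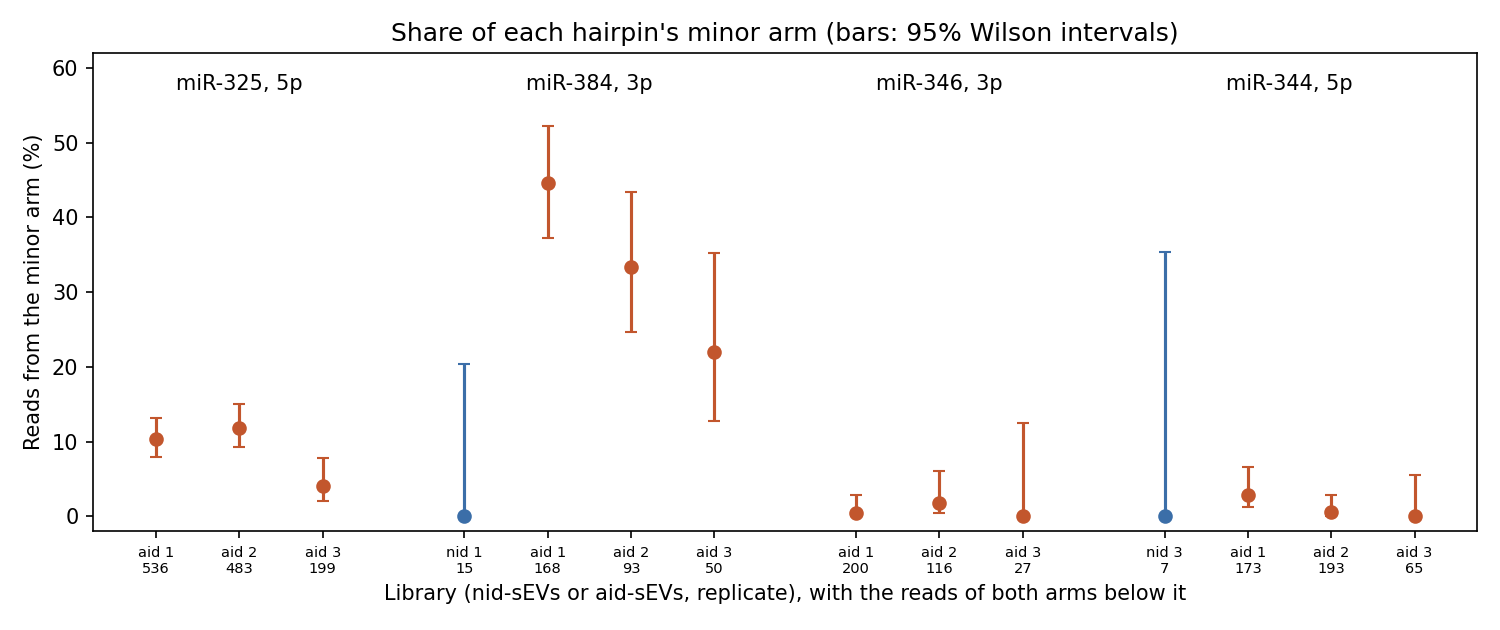
Share of reads (%) from the minor arm of 4 hairpins, with 95% Wilson intervals, in each library with more than 3 reads of the hairpin (blue, nid-sEVs; orange, aid-sEVs). The number under each library is its reads of both arms. The miR-384 shares lie between 22.0% and 44.6% in aid-sEVs, while those of miR-346 and miR-344 stay under 3%.

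Among the 424 entries matched to RefSeq, others had the seeds of 2 of these miRNAs. mmu-miR-384-5p has the seed of the miR-30 family, a large family expressed in many tissues. Of its matched relatives, miR-30a-5p was at 3339 ± 2084 RPM in nid-sEVs against 2582 ± 998 RPM in aid-sEVs, miR-30c-5p at 1106 ± 733 against 1689 ± 217 RPM, and miR-30e-5p at 277 ± 172 against 291 ± 148 RPM (SD, n = 3). The groups overlapped for each of these 3. Entries with miR-30 names that had no match are not included, so the share of mmu-miR-384-5p among all miRNAs with this seed is not given. mmu-miR-344d-3p shares the seed AUAUAAC with miR-410-3p, which was at 33.4 ± 34.9 RPM in nid-sEVs and 103 ± 30.1 RPM in aid-sEVs (SD, n = 3), with overlapping groups. In aid-sEVs, mmu-miR-344d-3p was the more abundant of the pair.

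Across all 718 entries, limma on log2(RPM + 1) called 112 entries higher and 13 lower in aid-sEVs, at an adjusted p under 0.05 and a log2 difference over 1 in size. The share called higher was 15.6%, and among the members it was 7 of 11. After thinning of all libraries to the smallest total, 56 entries were called higher and 5 lower. DESeq2 on the recovered reads called 65 higher and 50 lower, with an adjusted p for 436 entries. The 7 were mmu-miR-346-5p, mmu-miR-325-5p, mmu-miR-384-3p, mmu-miR-344b-3p, mmu-miR-325-3p, mmu-miR-344d-3-5p and mmu-miR-344d-3p. The members not called were mmu-miR-344-3p and mmu-miR-384-5p, whose nid-sEV reads came from a single library, and the scarce mmu-miR-344-5p and mmu-miR-346-3p. Because this contrast was used to choose the families, nothing is read from these counts.

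Every aid-sEV library was above every nid-sEV library for 9 of the 11 members, against 24.2% of all entries. All 3 nid-sEV libraries were at 0 for 7 of the 11 members, against 21.6% of all entries, or 155. Of these 155 entries, 17 would have given 3 reads or more in the shallowest nid-sEV library at their mean aid-sEV level. mmu-miR-346-5p, mmu-miR-325-5p, mmu-miR-384-3p and mmu-miR-344b-3p were 4 of these 17. For most entries at 0 in nid-sEVs the depth was thus too low to show the aid-sEV level in each library, while for these 4 it was not.

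The median log2 difference was 6.71 over the members and 1.11 over all entries on the log2(RPM + 1) scale, which depends on the added 1 where a group is at 0. In another version, each entry at 0 in a whole group was set at its bound against that group's highest floor. Such an entry was given a log2 difference of 0 if its mean in the other group was below that floor. Entries with reads in both groups were given the log2 ratio of means. The medians were then 0.90 and 0.00. They are on another scale than 6.71 and 1.11, and the differences fixed at 0 are part of them. The members were chosen on this contrast, so their medians are descriptions.

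**Figure D5:**
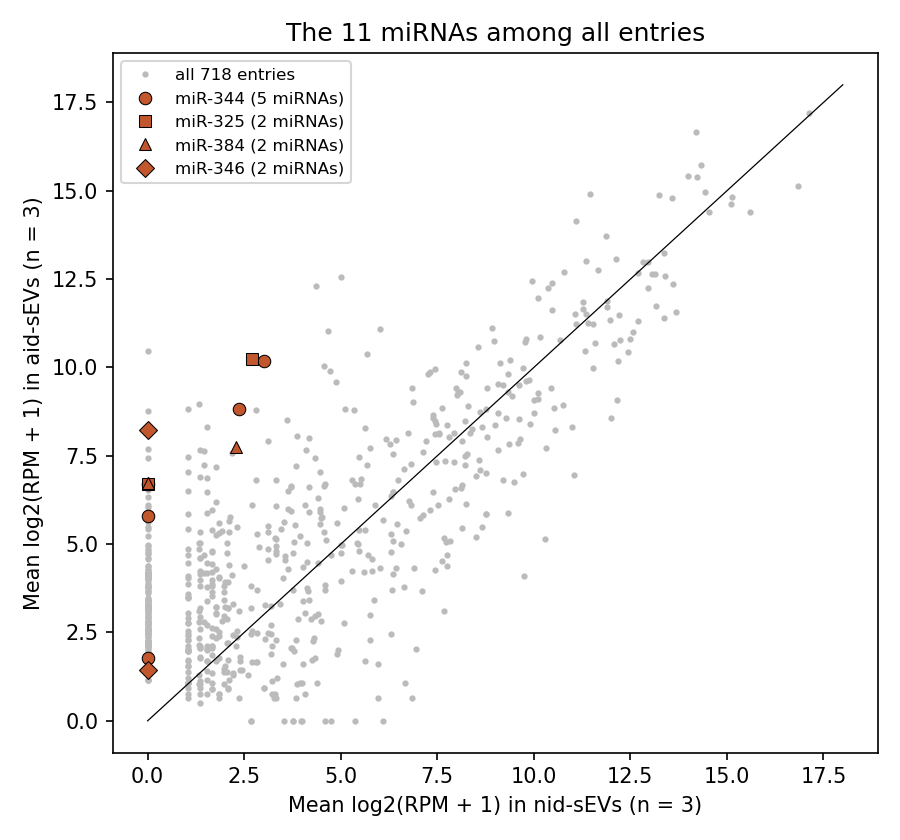
Mean log2(RPM + 1) of each entry in nid-sEVs (x axis) and aid-sEVs (y axis), n = 3 libraries each, with the families as filled symbols and all 718 entries in grey. The line marks equal levels. The 11 members lie above the line, 7 of them on the left edge where nid-sEVs had 0 reads.

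The miRNA whose pattern over the 6 libraries was most like the summed members was miR-383-5p, with a Pearson r of 0.990 on the log2(RPM + 1) scale among 354 candidates. It was at 147, 107 and 257 RPM in nid-sEVs and at 919, 886 and 1006 RPM in aid-sEVs. The next were miR-7b-5p (r = 0.963), an islet-enriched miRNA, and miR-135a-5p (0.957), miR-7688-5p (0.957) and miR-880-3p (0.956), of which the last 3 had 0 reads in each nid-sEV library. miR-135a-5p had 6, 5 and 2 reads in aid-sEVs, so its place rests on few reads. All 5 were higher in each aid-sEV library than in each nid-sEV library, and the r values are descriptions over 6 points that share the library depths.

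Markers of other cell types were examined in the same libraries. The 13 measured miRNAs of a fixed neural list summed to 1053 to 2949 RPM in nid-sEVs and 3713 to 4809 RPM in aid-sEVs, and 2 of the 13, or 15.4%, were called higher, against 15.6% of all entries. The median log2 difference of the list was 0.64, against 1.11 over all entries in the same fit. The median of all entries depended on the settings and was 0.32 after thinning to the smallest total. The median of the list was not computed there, so the medians are not ranked. The difference in the sum came from miR-124-3p, the main neuronal miRNA, which was at 74.4 ± 54.4 RPM in nid-sEVs and 2271 ± 697 RPM in aid-sEVs (SD, n = 3). Without it, the other 12 summed to 1007 to 2909 RPM in nid-sEVs and 1914 to 2193 RPM in aid-sEVs, and 7 of the 13 had a lower mean in aid-sEVs, among them miR-129-5p, at 1059 ± 729 against 779 ± 46.7 RPM, and miR-9-5p, at 189 ± 190.4 against 116 ± 60.8 RPM. miR-137-3p was at 0 in all nid-sEV libraries, and miR-138-5p was at 0 in all aid-sEV libraries. Their part in the levels of the miR-344, miR-325, miR-384 and miR-346 families was not tested.

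The islet endocrine list summed to 113502 to 417798 RPM in nid-sEVs and 255459 to 269299 RPM in aid-sEVs, so the groups overlapped. Of its 13 miRNAs, 3 (23.1%) were called higher, against 15.6% of all entries. In the same list 1 was called lower, where 13 of all 718 entries were. By mean, 4 of the 13 were higher and 9 were lower in aid-sEVs. The exocrine list, 4 of 4 measured, summed to 95678 to 151102 RPM in nid-sEVs and 21584 to 59199 RPM in aid-sEVs, with 1 called lower. The liver and blood list, 9 of 9 measured, summed to 1069 to 4166 RPM in nid-sEVs and 90.0 to 329 RPM in aid-sEVs, with 2 called lower and miR-144-5p at 0 in all aid-sEV libraries. The mesenchymal and endothelial list, 10 of 10 measured, summed to 6926 to 30445 RPM in nid-sEVs and 5300 to 13441 RPM in aid-sEVs, with 0 called by limma, 3 at an unadjusted p under 0.05, 1 called lower by edgeR with its filter on low counts and 0 without it, and 2 called lower by DESeq2. The sums of the exocrine and of the liver and blood list were thus lower in each aid-sEV library than in each nid-sEV library. One by one, all 4 exocrine and all 9 liver and blood miRNAs had a lower mean in aid-sEVs, while every aid-sEV library was below every nid-sEV library for 1 of the 4 and 3 of the 9. In the mesenchymal and endothelial list, 9 of 10 had a lower mean, and every aid-sEV library was below every nid-sEV library for 3. The share of all entries with every aid-sEV library below was not computed, so nothing is read from these counts. miR-148a-3p, at 118766 ± 25844 against 39079 ± 17744 RPM, made up most of the exocrine sum. The part of these lists in the result was not tested either. With all values scaled to the islet endocrine list, the log2 difference of the summed members was 5.12, against 5.33 on the deposited scale.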

How the data were processed

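Total RNA was extracted from sEVs of cultured islets, and small RNA libraries were sequenced on an Illumina NovaSeq instrument, 3 for each sEV group. The submitters' processing notes name fastp 0.23.0, HISAT2 2.2.1 and GRCm38. The miRNA reference and the counting tool are not given in the sources used here. The authors deposited a table of 718 entries, 479 of them with a miRBase name, with the level of each library in RPM. Every listed entry was detected in at least 2 libraries. The same table holds the authors' comparison as log2 fold changes, mean log2 abundance, p-values and false discovery rates, which were not used.

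Division by the smallest value above 0 gave whole reads (tolerance 0.02) for 100% of the RPM values. Groups came from the labels. limma 3.58.1 (lmFit, eBayes with trend; R 4.3.3) was run on log2(RPM + 1) over all entries, with group as the only term. The code was checked on simulated counts with the same fixed spread in all libraries. That check does not show how the fit does at the spread of these libraries. An entry was called where its log2 difference was over 1 in size and its p, adjusted by the Benjamini-Hochberg method, was under 0.05. Count tests with edgeR 4.0.16 and DESeq2 1.42.0 on the recovered reads, other pseudocounts, filters, scalings and left-out libraries served as alternatives. Scaling to the islet endocrine list and the pair of libraries of similar total were added after the data were seen. Differences on the log2(RPM + 1) scale depend on the added 1 where libraries have 0 reads. They exceeded the log2 ratios of means for the members with nid-sEV reads. The values were 7.53 against 6.60 for mmu-miR-325-3p and 7.18 against 5.72 for mmu-miR-344d-3p. They were 6.46 against 3.34 for mmu-miR-344-3p and 5.47 against 2.54 for mmu-miR-384-5p. A fold against a group at 0 reads is a bound against the highest floor of 3 reads of a single library. Ratios of pooled reads have exact intervals from the binomial split of reads, which cover counting error only.

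The authors state in general that their experiments had biological replicates. The labels do not say whether libraries of a group came from separate mice. The p-values thus measure the spread between these libraries, which may be in part technical. The families, lists and rules were chosen with earlier results of these data known. The miRNAs like the members were the 5 named entries with the highest Pearson r to the summed members among those with a mean of at least 10 RPM in aid-sEVs. Sequences and hairpins came from RefSeq (GRCm38.p6), where 424 of the 479 named entries matched, and host genes from the GENCODE annotation of the same build.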

Additional observations from a re-analysis of the deposited data

How the results depend on the processing

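The log2 difference of the summed members was 5.33 and stayed between 4.54 and 5.87 with any library left out. It was 5.0 between the libraries of similar total. Of 181 values of single members under the other settings, 162 kept their side of the threshold, 15 lost the call, 4 gained it and 0 turned. mmu-miR-346-5p, mmu-miR-325-5p, mmu-miR-384-3p and mmu-miR-344b-3p were called higher in each setting without a block that tested them, mmu-miR-344d-3p in 12 of 17, and mmu-miR-344-3p and mmu-miR-384-5p in 1 of 17, without nid-sEV replicate 3 and without nid-sEV replicate 1. With any library left out, 5 to 8 members were called. Without aid-sEV replicate 3 these included mmu-miR-344-5p and mmu-miR-346-3p, which had only 6 and 3 reads over the aid-sEV libraries. A call on this scale can thus rest on a few reads against 0. The members were chosen on this contrast, so how often they were called is a description and supports nothing. For a member at 0 in each nid-sEV library, leaving out such a library could not change the difference.

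Counts over all entries depended on the settings more. With 112 higher and 13 lower in the reported fit, a pseudocount of 10 gave 62 higher and a pseudocount of 0.1 gave 8 lower. A minimum mean of 10 RPM kept 516 entries and gave 69 higher. Thinning to the smallest library gave 56 higher and 5 lower. TMM factors gave 3 lower and moved the median log2 difference of all entries from 1.11 to 1.43. Scaling to the islet endocrine list gave 7 lower and a median of 0.87. The median was 0.55 with the minimum mean of 10 RPM, 0.39 with a pseudocount of 10 and 0.32 after thinning. It was 0.36 in DESeq2, 0.82 in edgeR with no filter and -0.02 in edgeR with filterByExpr. edgeR's quasi-likelihood test gave 48 higher and 21 lower among the 245 entries kept by filterByExpr, and 56 higher and 7 lower with no filter. DESeq2 gave 65 higher and 50 lower, with an adjusted p for 436 entries. Where fewer entries were tested, the counts are not comparable with those over all entries. With any library left out the counts ran from 33 to 150 higher and from 1 to 26 lower. The lowest values were without nid-sEV replicate 2 and the highest without nid-sEV replicate 1. The causes were not tested.

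With the replicate number as a replicate block, limma called 0 entries higher, 0 lower and 0 members, with 2 residual degrees of freedom. In this fit 187 of the 718 entries had an unadjusted p under 0.05, and 9 of the 11 members were among them. The members were chosen on this contrast, so nothing is read from that count. Deviations of same-numbered libraries correlated at -0.05, 0.13 and -0.11, so no pairing by number was seen. With 3 libraries in each group, these values cannot exclude a pairing. Few reads in nid-sEVs limit every level there, and fold bounds rest on the floor used.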
